A study of Mus musculus with 49 samples.

Results

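The comparison covers 10 of the 49 arrays of a study of arsenate in the drinking water of mice: the 5 bladders of mice that drank 0.5 ppm arsenate for 12 weeks, and the 5 bladders of mice that drank water alone for as long. They were chosen by title alone, with no measured value. All were adult females of the strain C57Bl/J, aged 155 days, and received arsenate, a pentavalent inorganic arsenic, freely with their drinking water. Whole bladders were kept in RNAlater, so wall muscle, connective tissue, vessels and the urinary lining share each sample, and each array holds the RNA of 1 unpooled mouse. Further groups are used beside them: 15 arrays of mice on 2, 10 or 50 ppm for 12 weeks, and 4 arrays at 0.5 ppm with 5 of water after 1 week, at an age of 76 days. Mice of a group carry a common leading number in their label, whose meaning is not given, so the dose and whatever that number stands for cannot be told apart. The mice are called here by their second number, 1 to 5, within a group.

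Arsenate is reduced to arsenite and methylated after uptake, and the products leave the body with urine, which brings them to the bladder lining. The urothelium consists of basal cells, intermediate cells and superficial cells that carry uroplakin plaques, and it rests on a collagen-rich lamina propria, the smooth muscle of the detrusor and an outer mesothelium. NRF2, a transcription factor that KEAP1 holds back until arsenic or other electrophiles modify it, switches on detoxifying enzymes and is a well-known arsenic sensor.

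Each array gave 1 signal per probe set, which was read as log2(signal + 16), a scale whose floor is 4. A gene was represented by its brightest probe set, 14646 genes were bright enough to test, and limma was fitted over all 25 arrays of 12 weeks. A gene is called where its Benjamini-Hochberg adjusted p is under 0.05, and "rose" and "fell" are used of called genes only. Changes are 0.5 ppm minus water in log2 units ± SE. Superficial and basal urothelium markers averaged 12.25 to 12.49 and 10.40 to 10.66 over the 0.5 ppm mice, against 12.49 to 12.73 and 10.50 to 10.89 over the water mice. Smooth muscle markers averaged 13.23 to 13.54 in 0.5 ppm mice and 12.92 to 13.30 in water mice. Liver markers, as a tissue that should be absent, averaged 6.15 to 6.34 in 0.5 ppm mice and 6.09 to 6.58 in water mice.

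At 12 weeks, 77 genes differed between 0.5 ppm and water, 0.526% of those tested. Of these, 49 rose (0.335%) and 28 fell (0.191%), and the rises included a collagen receptor, laminin chains and the smooth muscle coactivator Myocd, while the falls included the clock output gene Dbp, the epithelial gene Krtcap3 and the detoxifying enzyme Ephx1. Changes were moderate: called rises ran from 0.38 to 1.80 with a median of 0.74, and called falls from -1.44 to -0.34 with a median of -0.48. The 5 arrays of each group did not overlap for 34 of the rises and 25 of the falls, against 3.95% of all genes tested in either direction (1.52% higher and 2.43% lower). The same arrays entered the calls, so a larger share among called genes is built in. At an unadjusted p under 0.05 stood 2778 genes, 19% of those tested, 1274 of them higher and 1504 lower. The number of calls depended strongly on single mice. It was 4, 351, 7, 1 and 1 without 0.5 ppm mouse 1, 2, 3, 4 and 5, and 485, 27, 2, 12 and 0 without water mouse 1, 2, 3, 4 and 5 (for this 0, limma gave 2432 genes at an unadjusted p under 0.05). Every called gene kept its sign in each of these fits. Where the groups do not overlap, leaving out a mouse cannot turn the sign. For the other called genes a kept sign is largely built in, as they were called on the same mice.

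**Figure D1:**
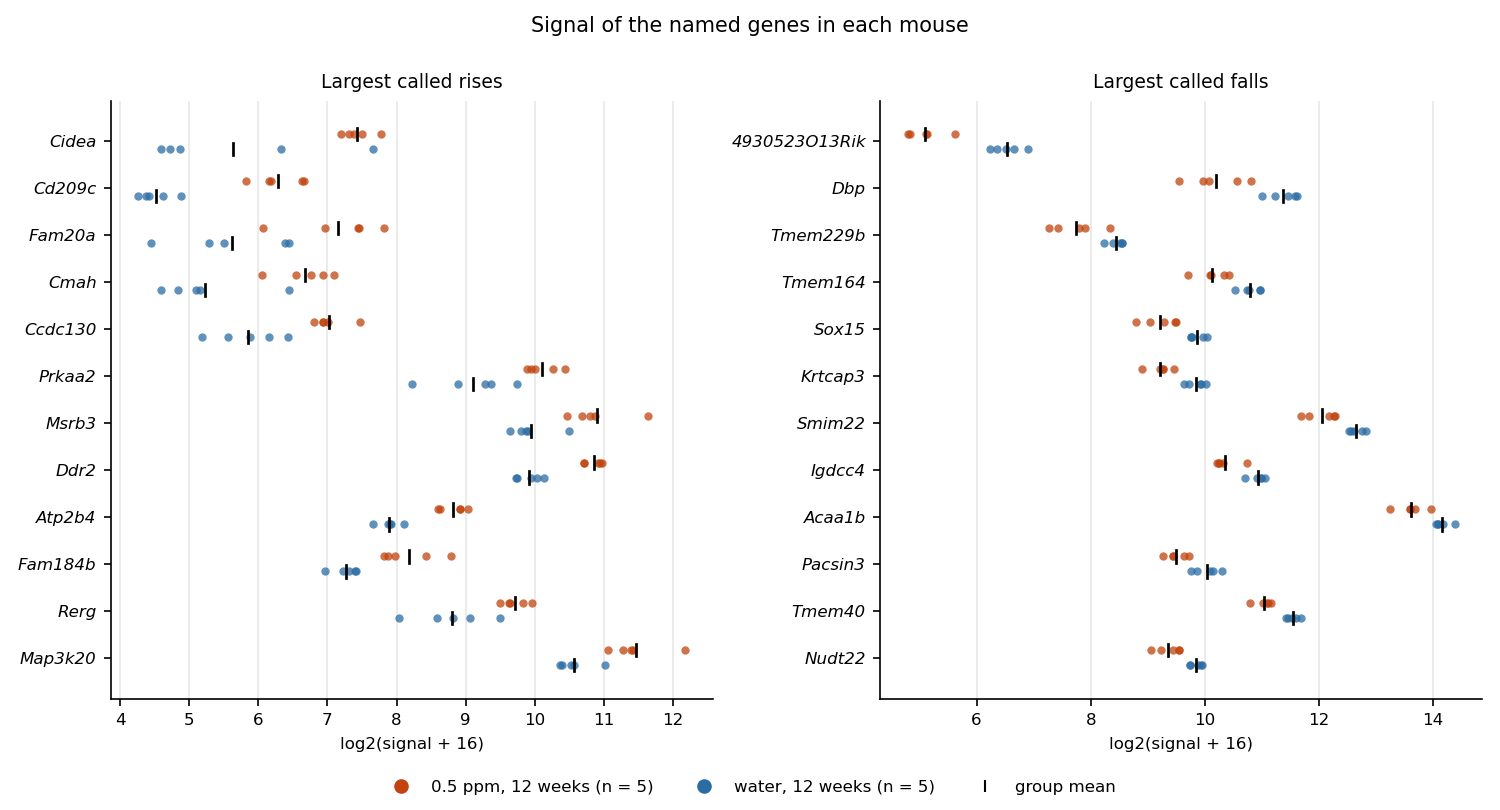
Signal of the 12 largest called rises (left) and the 12 largest called falls (right) in each mouse, as log2(signal + 16), with 0.5 ppm in orange above water in blue and a black tick at each group mean (n = 5 per group). The 0.5 ppm mice lie above all water mice for genes such as Ddr2 and Cd209c, and below all of them for Krtcap3 and Sox15, while 1 water mouse reaches the 0.5 ppm mice for Cidea.

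The gene with the smallest p was Ddr2, a receptor tyrosine kinase that fibrillar collagens activate. Its log2 signal was 10.72, 10.71, 10.97, 10.94 and 10.91 in the 0.5 ppm mice, against 10.03, 9.94, 9.75, 10.14 and 9.73 in the water mice. The groups are separated by a gap wider than the spread within either. Ddr2 rose by 0.93 ± 0.14 (adjusted p = 0.00704), with means of 10.85 ± 0.13 at 0.5 ppm and 9.92 ± 0.18 in water (SD, n = 5 each). The call was lost in 1 of the 10 fits without a mouse, and a further probe set of the gene stood at 0.71 ± 0.25.

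Cidea, a protein that promotes the growth of lipid droplets, was among the largest called rises. Its signal was 7.19, 7.39, 7.77, 7.49 and 7.32 at 0.5 ppm, against 6.33, 7.66, 4.87, 4.60 and 4.72 in water. The 0.5 ppm mice were alike, whereas the water mice were spread from near the floor to the 0.5 ppm range, with water mouse 2 above 4 of the 0.5 ppm mice. The rise was 1.795 ± 0.40 (adjusted p = 0.0401; 2.47 with an offset of 1 and 1.06 with an offset of 64), and the call was lost in 7 of 10 fits without a mouse. Cd209c, a C-type lectin of the DC-SIGN family, stood at 5.83, 6.18, 6.66, 6.64 and 6.15 at 0.5 ppm, against 4.27, 4.88, 4.63, 4.42 and 4.37 in water. The groups did not overlap, but the water mean of 4.51 lies near the floor, so the size of its rise (1.78 ± 0.36, adjusted p = 0.0361) depends on the offset (3.09 with an offset of 1 and 0.84 with an offset of 64). The Cd209c call was lost in 7 of 10 fits without a mouse.

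Further large rises were Fam20a, a pseudokinase partner of the secretory kinase Fam20c (1.535 ± 0.33), and Cmah, which converts the sialic acid Neu5Ac to Neu5Gc (1.45 ± 0.34). Cmah has 5 other probe sets, between -0.33 and 0.76, and 3 of them lay below 0. Ccdc130 rose by 1.18 ± 0.22, while its further probe set stood at -0.81 ± 0.29. These genes therefore rest on 1 probe set each. Prkaa2, the catalytic alpha 2 subunit of the energy sensor AMPK, rose by 1.00 ± 0.22, with 9.89 to 10.43 at 0.5 ppm against 8.22 to 9.74 in water. Msrb3, a methionine sulfoxide reductase, rose by 0.95 ± 0.20, and 0.5 ppm mouse 1 was highest at 11.64. Atp2b4, a plasma membrane calcium pump, rose by 0.93 ± 0.20, with 8.60 to 9.04 at 0.5 ppm and 7.66 to 8.11 in water. The remaining named rises were Fam184b (0.91 ± 0.21), the Ras-like growth inhibitor Rerg (0.91 ± 0.20) and Map3k20, a stress kinase known for sensing stalled ribosomes (0.89 ± 0.19). The other probe sets of Fam184b stood at -0.176 and -0.041, with mean signals of 4.58 and 5.53. Adjusted p-values of the 12 genes ran from 0.00704 to 0.045. The groups overlapped for Fam20a, Cmah, Msrb3 and Rerg. Of 10 fits without a mouse, 5 lost the call of Ccdc130, 6 that of Fam20a and 7 that of Cmah. The calls of Prkaa2, Msrb3, Atp2b4, Fam184b, Rerg and Map3k20 were each lost in 8.

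Among the falls, 4930523O13Rik is a dim gene whose size depends on the offset. It stood at 5.62, 5.13, 5.11, 4.80 and 4.83 at 0.5 ppm, against 6.91, 6.24, 6.65, 6.51 and 6.35 in water. The fall of 1.44 ± 0.34 (a change of -1.44, adjusted p = 0.0468) came without overlap between groups, and the change was -2.05 with an offset of 1 and -0.77 with an offset of 64. Krtcap3, a membrane protein described in keratinocytes, had the smallest p of the falls. Its signal was 9.26, 9.47, 9.26, 8.90 and 9.21 at 0.5 ppm, against 9.64, 9.91, 10.02, 9.93 and 9.73 in water. Every 0.5 ppm mouse lay below every water mouse, and the change was -0.625 ± 0.11 (adjusted p = 0.0261). Sox15, a transcription factor of the SOX family, had 9.03, 9.49, 9.47, 8.79 and 9.29 at 0.5 ppm, against 9.76, 9.76, 9.96, 9.78 and 10.03 in water, a change of -0.64 ± 0.12 (adjusted p = 0.0261). The calls were lost in 4 of 10 fits without a mouse for Krtcap3, in 5 of 10 for Sox15 and in 8 of 10 for 4930523O13Rik.

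Acaa1b, a peroxisomal thiolase of fatty acid breakdown, was the brightest of the named falls, with 13.24 to 13.96 at 0.5 ppm and 14.05 to 14.38 in water (-0.54 ± 0.115). The membrane-curving protein Pacsin3 fell by 0.53 ± 0.11 and the immunoglobulin family member Igdcc4 by 0.58 ± 0.11. Transmembrane or small membrane proteins of little known role made up Tmem229b (-0.70 ± 0.16), Tmem164 (-0.66 ± 0.14), Smim22 (-0.61 ± 0.13) and Tmem40 (-0.51 ± 0.115). Nudt22, a Nudix hydrolase, fell by 0.49 ± 0.11. The groups overlapped for 2 of these, and in both through the same mouse: 0.5 ppm mouse 2 reached 8.33 for Tmem229b, above the lowest water mouse at 8.23, and 10.73 for Igdcc4, above water mouse 1 at 10.69. Other probe sets ran from -0.331 to 0.098 for Tmem229b, -0.263 to 0.168 for Tmem164 and -0.304 to 0.554 for Igdcc4. Those of Pacsin3, Smim22, Tmem40 and Nudt22 all lay below 0. Of 10 fits without a mouse, 7 lost the call of Acaa1b and of Pacsin3, and 8 that of each other gene named here.

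Among the called genes, mouse 1 was often the extreme mouse of its group. It was the highest of the 0.5 ppm mice for 32 of the 49 rises and the lowest for 20 of the 28 falls. It was also the highest of the water mice for 29 of the rises and the lowest for 14 of the falls. How often mouse 1 was extreme over all genes tested was not counted. In both groups mouse 1 had the lowest level of poly-A spikes, the control transcripts added to the RNA before labelling: 9.897 at 0.5 ppm, where the others had 10.32 to 10.52, and 10.21 in water, where the others had 10.62 to 11.17. With both of these mice left out, an alternative added after the data were seen, 20 genes were called, 15 rises and 5 falls, all among the 77. In the fit with all mice, the 49 rises had a median genomic span of 109.8 kb and the 28 falls of 13.3 kb. Over the genes tested that had one, the median span was 21.9 kb. With the poly-A spike level in the fit, 3 genes were called, and the median size of the 77 changes was 0.48, against 0.64 as reported. The part of gene length in the calls was not tested.

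Genes of the extracellular matrix leaned upward together. Of the 33 collagen and matrix genes tested, 2 rose and 0 fell, and the median over the list was 0.33 against 0.001 over all genes. Smooth muscle markers were higher too, and with their mean in the fit the matrix median was 0.066, with 21 of 33 genes higher. Both that rose encode chains of laminin, the cross-shaped protein that organizes basement membranes. Lamc1, the gamma 1 chain, had 11.34, 11.13, 11.34, 11.33 and 11.34 at 0.5 ppm, against 10.80, 10.78, 10.47, 10.74 and 10.82 in water. The groups did not overlap, and Lamc1 rose by 0.58 ± 0.11 (adjusted p = 0.0322). Lama2, the alpha 2 chain of muscle basement membranes, had 9.68, 9.36, 9.60, 9.56 and 9.59 at 0.5 ppm, against 9.09, 9.16, 8.47, 8.88 and 8.56 in water, and rose by 0.725 ± 0.16 (adjusted p = 0.0401). Each of these laminin calls was lost in 7 of 10 fits without a mouse. All 0.5 ppm mice lay above all water mice for this chain too. Col1a1, the main chain of type I collagen, stood at 0.965 ± 0.24 (adjusted p = 0.0532), with water mouse 2 at 13.45, inside the 0.5 ppm range of 13.17 to 13.87. Nid1, the linker of laminin to collagen IV, stood at 0.50 ± 0.16 (adjusted p = 0.0979). A higher mean at 0.5 ppm was seen for 32 of the 33 genes, against 7340 of the 14646 tested.

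At an unadjusted p under 0.05, 1274 of all 14646 genes were higher. The elastic fibre and crosslinking list had 0 calls among 20 genes at the adjusted threshold and 8 at that unadjusted p, all higher. Its median change was 0.30, and 0.103 with the smooth muscle marker mean in the fit. Ltbp1, which anchors latent TGF-beta to fibrils, stood at 0.49 ± 0.135 (adjusted p = 0.0665), the crosslinking enzyme Lox at 0.78 ± 0.24 (adjusted p = 0.0916), Eln, elastin itself, at 0.57 ± 0.20 (adjusted p = 0.132) and Fbln1, a fibre-associated glycoprotein, at 0.28 ± 0.10 (adjusted p = 0.13). The mean over the list was 9.75 to 10.08 in the 0.5 ppm mice and 9.41 to 9.75 in the water mice. Fibroblast markers, which share Col1a1 with the matrix list, had a median of 0.21 over 13 genes (0.074 with the smooth muscle marker mean in the fit). Of these 13, 0 were called and 2 had an unadjusted p under 0.05, against 19% of all genes tested.

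Myocd, the coactivator that drives the smooth muscle programme with SRF, was the 1 called gene of the 20 smooth muscle markers. It had 10.83, 10.38, 10.60, 10.48 and 10.27 at 0.5 ppm, against 10.21, 9.56, 9.31, 10.02 and 9.60 in water, without overlap, and rose by 0.77 ± 0.18 (adjusted p = 0.0468). This call was lost in 8 of 10 fits without a mouse. The further probe set of Myocd stood at 1.55 ± 0.36. The intermediate filament protein Synm stood at 0.97 ± 0.25 (adjusted p = 0.0566), the small heat shock protein Hspb7 at 0.695 ± 0.18 (adjusted p = 0.0615) and the actin-binding Synpo2 at 0.68 ± 0.21 (adjusted p = 0.0888). The list median was 0.19, and 17 of 20 means were higher at 0.5 ppm. With the list's own mean in the fit the median was -0.098. Skeletal muscle markers, which should be few in bladder, averaged 7.69 to 7.93 at 0.5 ppm and 7.53 to 7.73 in water, with 0 of 14 called. In whole bladders a larger share of muscle or matrix cells and more RNA per such cell cannot be told apart.

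At an unadjusted p under 0.05, 1274 of all 14646 genes were higher. Endothelial markers had a median change of 0.30 over 15 genes, 14 of them with a higher mean. Of the 15, 0 were called and 5 were higher at that unadjusted p. With the smooth muscle marker mean in the fit that median was 0.093. Pecam1, the junction protein of vessel walls, stood at 0.56 ± 0.14 (adjusted p = 0.0514), with 9.69 to 9.84 at 0.5 ppm and 8.94 to 9.39 in water and no overlap. The angiopoietin receptor homologue Tie1 stood at 0.80 ± 0.25 (adjusted p = 0.094), the diaphragm protein Plvap at 0.45 ± 0.15 and the sialomucin Emcn at 0.66 ± 0.25. Of the lists of infiltrating cells, macrophage markers averaged 9.90 to 10.14 at 0.5 ppm and 9.77 to 9.89 in water (15 genes, 0 called, median 0.13), T and NK cell markers 6.30 to 7.19 at 0.5 ppm and 6.47 to 7.01 in water (9 genes, 0 called), and B and plasma cell markers 7.39 to 8.61 at 0.5 ppm and 7.28 to 9.03 in water (11 genes, 0 called).

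**Figure D2:**
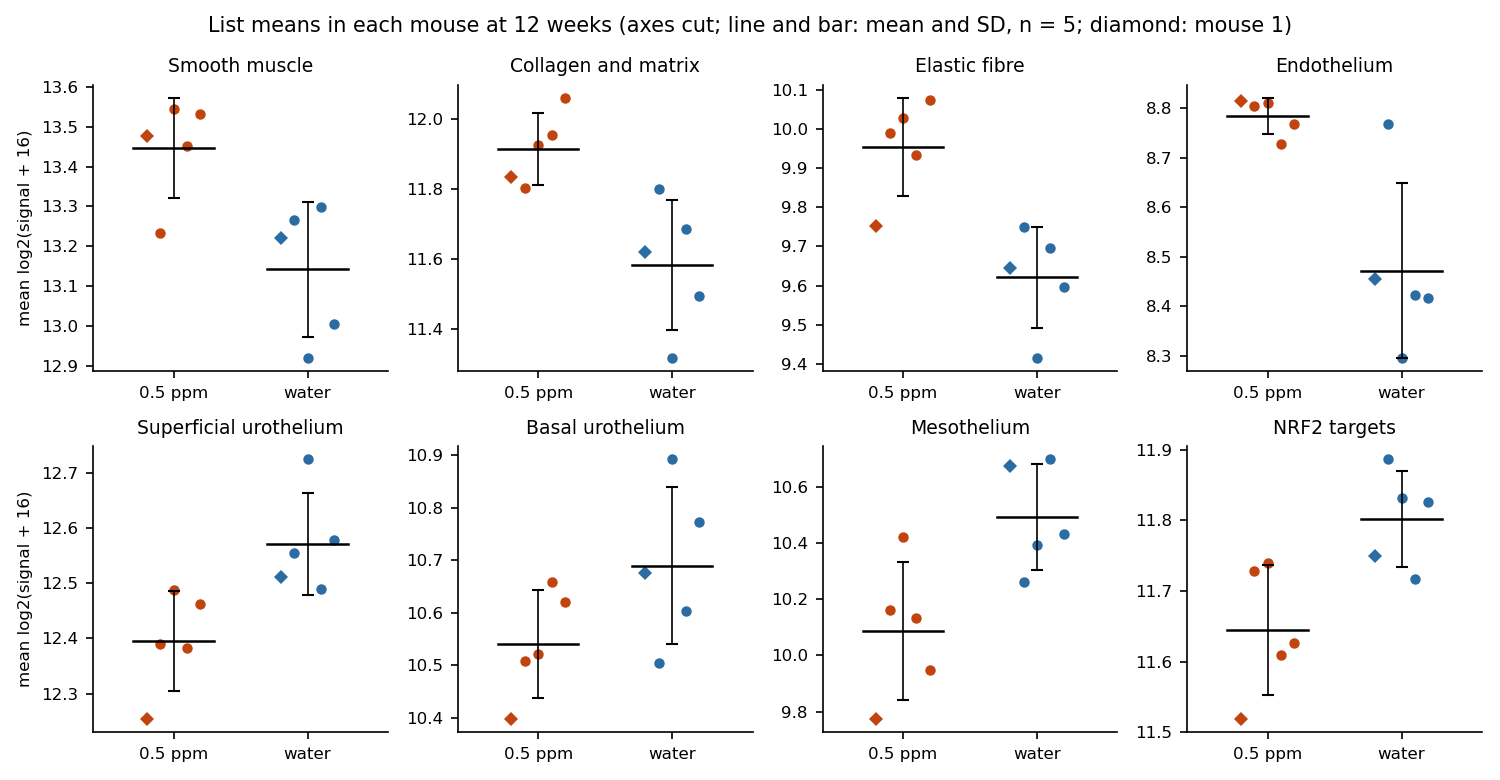
Mean log2(signal + 16) of 8 gene lists in each mouse at 12 weeks, 0.5 ppm in orange left of water in blue, with group mean and SD in black (n = 5 per group), mouse 1 as a diamond, and vertical axes that do not start at 0. Matrix, elastic fibre, muscle and vessel lists sit higher at 0.5 ppm, and the urothelium, mesothelium and NRF2 lists lower, with some overlap in most panels.

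The epithelial lists leaned the other way. Of 21 superficial and intermediate urothelium markers, 0 were called, 10 were lower at an unadjusted p under 0.05 and 0 higher, and the median change was -0.20. At that p, 1504 of all 14646 genes were lower and 1274 higher. Foxa1, a pioneer factor of urothelial identity, had 12.87 to 13.10 at 0.5 ppm and 13.18 to 13.39 in water, without overlap (-0.33 ± 0.083, adjusted p = 0.055). Upk3a, a uroplakin of the apical plaques, had 14.25 to 14.53 at 0.5 ppm and 14.56 to 14.82 in water, also without overlap (-0.33 ± 0.089, adjusted p = 0.0646). The simple-epithelium keratin Krt18 stood at -0.305 ± 0.095 and the tight junction claudin Cldn7 at -0.42 ± 0.13, with adjusted p-values of 0.0919 and 0.094.

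Basal urothelium markers had a median of -0.24 over 13 genes, and 1 of them, Dst, rose. Dst encodes dystonin, a giant plakin with an epithelial form in hemidesmosomes and other forms in muscle and nerve, and its probe sets need not tell these forms apart. It had 10.83 to 11.72 at 0.5 ppm and 10.18 to 10.74 in water (0.73 ± 0.17, adjusted p = 0.0456). The call was lost in 8 of 10 fits without a mouse, and its 3 other probe sets stood at 0.13, 0.46 and 0.18. The basal keratin Krt15 stood at -0.345 ± 0.11, the signalling ligand Shh at -0.255 ± 0.088 and the cell cycle regulator Sfn at -0.31 ± 0.12, with adjusted p-values of 0.0927, 0.118 and 0.153. Mesothelium markers were the list with the lowest median, -0.39 over 12 genes, and 12 of 12 had a lower mean at 0.5 ppm, 9 of them at an unadjusted p under 0.05 and 0 called. This list shares Upk1b, Upk3b and Krt19 with the superficial and intermediate urothelium list. Of all 14646 genes, 1504 were lower at an unadjusted p under 0.05. The zinc finger gene Bnc1 (-0.78 ± 0.22, adjusted p = 0.0729) and Msln, the surface protein mesothelin (-0.72 ± 0.23, adjusted p = 0.0985), were followed by the claudin Cldn15 (-0.60 ± 0.195) and Lrrn4 (-0.50 ± 0.17). Their list mean was 9.77 to 10.42 at 0.5 ppm and 10.26 to 10.70 in water.

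No NRF2 target was called higher: of 40 tested, 0 rose, 1 fell and 34 had a lower mean at 0.5 ppm, with a median of -0.175. The gene that fell was Ephx1, microsomal epoxide hydrolase, with 12.61, 12.92, 12.98, 12.80 and 12.77 at 0.5 ppm, against 13.07, 13.32, 13.14, 13.18 and 13.05 in water. Its groups did not overlap, and the change was -0.34 ± 0.080 (adjusted p = 0.0464). The call was lost in 8 of 10 fits without a mouse. The glutathione peroxidase Gpx2 stood at -0.53 ± 0.14, the aldehyde dehydrogenase Aldh3a1 at -0.39 ± 0.11 and the glutathione transferase Gstm4 at -0.42 ± 0.12, with adjusted p-values of 0.0584, 0.0687 and 0.0713. For Gpx2 the 0.5 ppm mice had 9.40 to 10.18 and the water mice 10.21 to 10.64, and for Aldh3a1 12.52 to 12.997 at 0.5 ppm and 13.14 to 13.38 in water. The list mean in 0.5 ppm mice was 11.52 to 11.74, with mouse 1 lowest, and 11.72 to 11.89 in water mice. The superficial urothelium marker mean moved the same way, and its part in these values was not tested beyond the covariate fit, in which the NRF2 list median was -0.074.

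Over all 14646 genes, 2778 (19%) had an unadjusted p under 0.05, 1274 higher and 1504 lower. Genes that handle arsenic and metals had 0 calls. In the arsenic uptake and methylation list (22 genes, median -0.035, 3 at an unadjusted p under 0.05) the members of smallest p were the glutathione transferase Gsto2 (-0.41 ± 0.15), the aquaglyceroporin Aqp3 (-0.29 ± 0.12), the efflux pump Abcb1a (0.69 ± 0.31) and the glucose carrier Slc2a1 (-0.30 ± 0.15), with adjusted p-values from 0.144 to 0.268. For Abcb1a, 0.5 ppm mouse 1 stood at 8.30 and the next mouse of its group at 7.00. In the metal response list (19 genes, median -0.024, 8 at an unadjusted p under 0.05), the copper pump Atp7a stood at 0.64 ± 0.16 (adjusted p = 0.055), its chaperone Atox1 at -0.285 ± 0.090, the zinc importer Slc39a4 at -0.60 ± 0.19 and the metal-sensing factor Mtf1 at 0.42 ± 0.145. Oxidative phosphorylation genes also had 0 calls among 35, with a median of -0.12. Of these, 9 were lower and 0 higher at an unadjusted p under 0.05, among them the cytochrome subunit Cyc1 (-0.315 ± 0.086, adjusted p = 0.0658) and the ATP synthase subunit Atp5d (-0.27 ± 0.080). In the fat cell lipid storage list, Cidea was the 1 called gene of 30, while the triglyceride-forming enzyme Dgat2 stood at -0.485 ± 0.14, the lipogenic factor Srebf1 at -0.405 ± 0.13 and the droplet coat protein Plin2 at -0.30 ± 0.11. Fat cell markers averaged 10.84 to 11.81 at 0.5 ppm and 10.51 to 12.23 in water.

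Dbp was the 1 called gene among 20 members of the circadian clock. It encodes a PAR bZIP transcription factor whose transcript cycles strongly under the activators CLOCK and BMAL1, which bind E-box elements. Its log2 signal was 9.54, 10.80, 10.56, 10.06 and 9.96 at 0.5 ppm, against 11.57, 11.46, 11.00, 11.61 and 11.24 in water. The groups did not overlap, and Dbp fell by 1.19 ± 0.27 (a change of -1.19, adjusted p = 0.0401). A further probe set stood at -0.96 ± 0.235, and the call was lost in 8 of 10 fits without a mouse. The other named clock genes did not show a shared direction. Nr1d1, the repressor REV-ERB alpha, stood at -0.39 ± 0.23 (adjusted p = 0.361) and Nr1d2 at -0.011 ± 0.22. The period genes Per1, Per2 and Per3 stood at 0.33 ± 0.19, 0.09 ± 0.17 and -0.083 ± 0.22, and the activators Arntl (also called Bmal1) and Npas2 at 0.066 ± 0.16 and 0.09 ± 0.17, with adjusted p-values from 0.349 to 0.866. Clock (0.61 ± 0.19, adjusted p = 0.0916), the kinase Csnk1d (-0.28 ± 0.094, adjusted p = 0.109) and the receptor Rora (0.74 ± 0.26, adjusted p = 0.132) completed the members of smallest p. The hour at which each mouse was killed is not given in the labels, and differences in it cannot be told apart from dose.

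The promoters of Dbp, which was called, and Per1, a clock gene that was not, are shown to set these windows side by side for the canonical E-box CACGTG, a palindrome that reads alike on both strands. They are RefSeq windows of 300 bases around the start of the gene, on build GRCm38.p6, with each E-box in capitals. Dbp lies on the plus strand at chr7:45704997-45705296, and Per1 on the plus strand at chr11:69098699-69098998.
Dbp: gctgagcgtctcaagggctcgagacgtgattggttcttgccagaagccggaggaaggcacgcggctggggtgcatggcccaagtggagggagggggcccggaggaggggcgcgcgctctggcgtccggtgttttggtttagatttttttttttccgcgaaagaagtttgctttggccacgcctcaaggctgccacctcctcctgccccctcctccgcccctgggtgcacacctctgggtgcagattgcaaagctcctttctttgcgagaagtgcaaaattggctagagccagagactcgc
Per1: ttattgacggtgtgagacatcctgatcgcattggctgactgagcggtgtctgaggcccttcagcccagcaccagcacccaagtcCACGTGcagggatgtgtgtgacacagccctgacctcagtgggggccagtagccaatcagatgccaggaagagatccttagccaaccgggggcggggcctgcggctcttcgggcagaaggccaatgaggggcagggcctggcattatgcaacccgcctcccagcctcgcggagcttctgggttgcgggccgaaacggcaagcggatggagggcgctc
The Per1 window held 1 E-box, the other window listed for Per1 held 0, and the Dbp window held 0. An E-box occurred in the windows of 5 of the 17 clock genes that had one (29.4%), against 8.09% of 27025 genes. A match is a description of these letters only.

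Immediate early genes, which respond within minutes to growth signals, stress and handling, had 0 calls among 33 at 0.5 ppm. At an unadjusted p under 0.05 stood 6 of them, 5 lower and 1 higher, against 19% of all genes tested. The AP-1 subunit Fos had 11.07, 11.90, 10.88, 12.86 and 12.13 at 0.5 ppm, against 12.48, 13.83, 12.38, 12.96 and 12.97 in water. The 0.5 ppm mice spread over a wide range that reaches into that of water (-1.15 ± 0.28, adjusted p = 0.0531). Ccn1, a secreted matricellular protein, stood at -1.59 ± 0.40 (adjusted p = 0.0554), with 7.80 to 10.32 at 0.5 ppm and 9.06 to 11.22 in water. Ier2 stood at -0.57 ± 0.15 and the AP-1 subunit Fosl2 at -0.31 ± 0.11. The list median was -0.062, against 0.17 once poly-A spikes entered the fit.

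Whether 0.5 ppm stood apart from the higher doses was tested against the mean of 2, 10 and 50 ppm at 12 weeks, in the same fit and without the water mice entering the contrast. Of 14646 genes, 205 differed (1.4%), 113 higher (0.772%) and 92 lower (0.628%) at 0.5 ppm. Egr1, an immediate early transcription factor, showed the largest positive difference: it was 12.05 ± 0.88 at 0.5 ppm, against 10.89 ± 0.80, 9.78 ± 0.32 and 9.72 ± 0.43 at 2, 10 and 50 ppm (SD, n = 5 each), a difference of 1.91 ± 0.28 (adjusted p = 0.00155). The water mean was 12.60 ± 0.53, and 0.5 ppm against water stood at -0.55 ± 0.34 (adjusted p = 0.389). Col1a1 was 13.48 ± 0.29 at 0.5 ppm, against 12.92 ± 0.37, 11.90 ± 0.50 and 12.70 ± 0.33 at 2, 10 and 50 ppm, a difference of 0.97 ± 0.195 (adjusted p = 0.0151). The centrosome protein Cep250 (1.20 ± 0.26), Nynrin (0.91 ± 0.23) and the zinc finger factor Maz (0.90 ± 0.20) were the other large positive differences, and each had its lowest means at 10 and 50 ppm.

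On the negative side stood Ammecr1 (-1.125 ± 0.28, from a 0.5 ppm mean of 4.57, near the floor), Dbp (-0.93 ± 0.22, adjusted p = 0.03), Gm6787 (-0.80 ± 0.21), 4932431P20Rik (-0.76 ± 0.13) and Ggact (-0.64 ± 0.17). Of these, 4932431P20Rik and Ggact were close to water at 0.5 ppm (-0.053 and -0.16). The collagen and matrix list had 3 genes higher in this contrast, Lamc1, Lama2 and Col1a1, and 0 lower, with a median of 0.31 over 33. The NRF2 list had 5 lower and 0 higher among 40, with a median of -0.13. The count of 205 was 613, 116, 31, 15 and 55 without 0.5 ppm mouse 1, 2, 3, 4 and 5, 351 without water mouse 2, 107 without 2 ppm mouse 1, 134 and 123 without 10 ppm mouse 4 and 5, and 120 without 50 ppm mouse 5.

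The comparisons of 2, 10 and 50 ppm with water share the 5 water mice with that of 0.5 ppm, so their changes are given beside each other only. Water had the lowest 12-week mean for 42 of the 49 rises and the highest for 16 of the 28 falls. These counts use the water mice on which the genes were called. At 50 ppm, 19 of the rises and 2 of the falls were called too, against 334 higher and 259 lower of all 14646 genes. Against the mean of the higher doses, 11 of the rises and 11 of the falls were called, against 205 of all genes. The 0.5 ppm mice in this contrast are those on which the genes were called, so a larger share among called genes is built in. The same limit holds for the p-values of Ddr2 and Krtcap3 against the higher doses. Ddr2 stood at 0.93 at 0.5 ppm, 0.055 at 2 ppm, 0.23 at 10 ppm and 0.325 at 50 ppm. Its 0.5 ppm level lay 0.73 above the mean of the higher doses (adjusted p = 0.00294). Krtcap3 stood at -0.625, -0.25, 0.062 and -0.15 at 0.5, 2, 10 and 50 ppm, and it too differed from the higher doses (-0.51, adjusted p = 0.00489). Cidea stood at 1.795, 1.62, 1.48 and 1.40, a profile in which every dosed group lay above water, and it was not called against the higher doses (0.30, adjusted p = 0.716). Acaa1b stood at -0.54, -0.46, 0.22 and -0.027, and Sox15 at -0.64, -0.42, -0.11 and -0.415. Lamc1 means were 11.30 at 0.5 ppm, 10.87 at 2 ppm, 10.51 at 10 ppm and 10.86 at 50 ppm, with 10.72 in water.

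**Figure D3:**
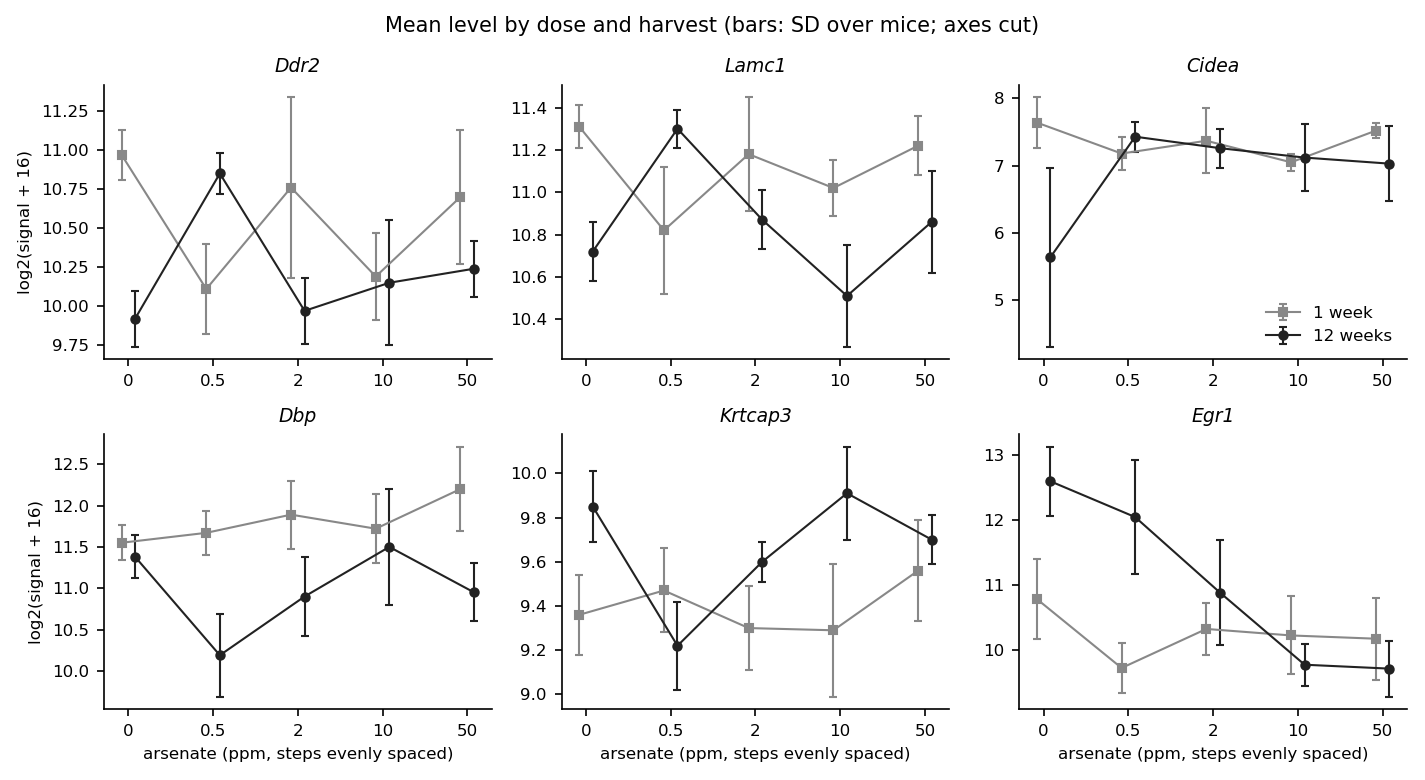
Mean log2(signal + 16) of 6 genes by arsenate dose in ppm (steps drawn evenly, water at 0) at 1 week (grey squares) and 12 weeks (black circles), with SD over mice (n = 5, but n = 4 at 0.5 ppm and 1 week) and vertical axes that do not start at 0. At 12 weeks Ddr2 and Lamc1 peak at 0.5 ppm, Dbp and Krtcap3 are lowest there, Cidea is low in water alone, and Egr1 declines with dose.

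After 1 week at the same dose, 7 genes were called (0.0478%), 7 lower and 0 higher than in water. The change at 12 weeks minus that at 1 week was tested for every gene over both harvests. It differed from 0 for 675 genes (4.61%), 465 of them higher (3.17%) and 210 lower (1.43%), and in 675 of the 675 the 2 changes had opposite signs. Choosing genes by a large difference of the 2 changes itself favours opposite signs, and their share over all genes was not counted. The harvests use different mice, dosed and water alike. The largest positive differences were those of Gria1, an AMPA-type glutamate receptor subunit (2.32 ± 0.46, from -1.04 at 1 week and 1.28 at 12 weeks), Cidea (2.26 ± 0.48), Cmya5, a muscle protein (2.22 ± 0.555), Cd209c (2.19 ± 0.55) and Gm13306 (2.14 ± 0.54). The largest negative differences were those of 4930523O13Rik (-1.73 ± 0.44), 4930417H01Rik (-1.47 ± 0.43), Gm6787 (-1.39 ± 0.35), Dbp (-1.31 ± 0.37) and Pkp1, a desmosomal plaque protein (-1.30 ± 0.34). Adjusted p-values of these 10 ran from 0.00247 to 0.0356.

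The water mice of the harvests differed too. Ddr2 was 10.11 ± 0.29 at 0.5 ppm (SD, n = 4) and 10.97 ± 0.16 in water (SD, n = 5) at 1 week, and 10.85 ± 0.13 at 0.5 ppm and 9.92 ± 0.18 in water at 12 weeks. The 0.5 ppm group was thus the lower at 1 week and the higher at 12 weeks, and the water means of the harvests lay apart by more than their SDs (difference of changes 1.80 ± 0.275, adjusted p = 0.000296). Dbp was 11.67 ± 0.27 at 0.5 ppm and 11.55 ± 0.21 in water at 1 week, and 10.19 ± 0.50 at 0.5 ppm and 11.38 ± 0.26 in water at 12 weeks, so here the dosed group alone shifted by more than its spread. Cidea was 7.18 ± 0.25 at 0.5 ppm and 7.64 ± 0.38 in water at 1 week, and 7.43 ± 0.22 at 0.5 ppm and 5.64 ± 1.33 in water at 12 weeks, so here the low group was water at 12 weeks.

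Between harvests, the 49 rises differed by a median of 0.61 in the 0.5 ppm mice and of -0.46 in the water mice, and the 28 falls by -0.42 in the 0.5 ppm mice and 0.22 in the water mice, against 0.02 in water over all genes. The 12-week mice of these medians are those on which the genes were called. At 1 week, 45 of the 49 rises had a lower mean at 0.5 ppm than in water (median -0.39), and 23 of the 28 falls had a higher mean (median 0.09). Among the lists, 9 of 33 matrix genes and 6 of 20 smooth muscle genes had a difference between harvests called higher and 0 called lower, and 5 of 40 NRF2 targets had one called lower and 0 higher. The matrix list had a median change of 0.33 at 12 weeks and -0.36 at 1 week. Its mean level was 12.04 ± 0.14 at 0.5 ppm (SD, n = 4) and 12.31 ± 0.12 in water (SD, n = 5) at 1 week, and 11.91 ± 0.10 at 0.5 ppm and 11.58 ± 0.18 in water at 12 weeks.

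**Figure D4:**
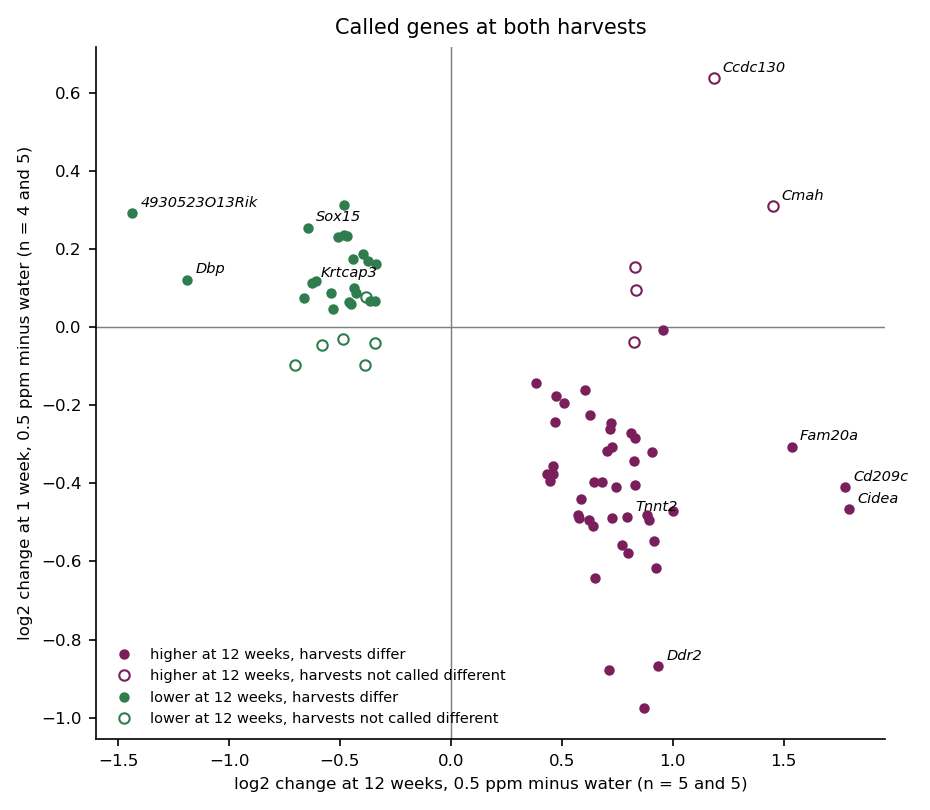
Log2 change of the 77 called genes at 0.5 ppm against water at 12 weeks (horizontal) and at 1 week (vertical), with filled points where the difference between harvests was called and open points where it was not. Most rises lie below 0 at 1 week and most falls slightly above 0. The horizontal values chose the genes, and they enter the test of the difference.

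Array quality measures did not pass a test with all 10 mice. The RNA integrity number averaged 9.44 ± 0.089 at 0.5 ppm (9.3 to 9.5) and 9.58 ± 0.11 in water (9.4 to 9.7; SD, n = 5 each), a difference of -0.14 (two-sided exact permutation p = 0.111, adjusted over 5 measures 0.278). The poly-A spike level was 10.3 ± 0.24 at 0.5 ppm and 10.71 ± 0.36 in water (exact permutation p = 0.0794, adjusted 0.278). Without water mouse 1 these differences were -0.185 and -0.536, each with the smallest p then possible (exact permutation p = 0.00794, unadjusted). The hybridization control level, the 3' to 5' ratio of Gapdh and Actb and the array median differed by 0.14, 0.0011 and 0.082 (adjusted exact permutation p = 0.575, 0.992 and 0.575). The smallest p that 5 mice against 5 allow is 0.00794. With the integrity number, the smooth muscle marker mean or the urothelium marker mean as a covariate, limma called 0 genes, with 2003, 894 and 1003 at an unadjusted p under 0.05. Adjusted for poly-A spikes, it called 3. The 77 genes kept their sign in all 4 of these fits, and their median size, 0.64 as reported, was 0.58, 0.47, 0.50 and 0.48. They were called for their changes on these same arrays, so a kept sign is partly built in.

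**Figure D5:**
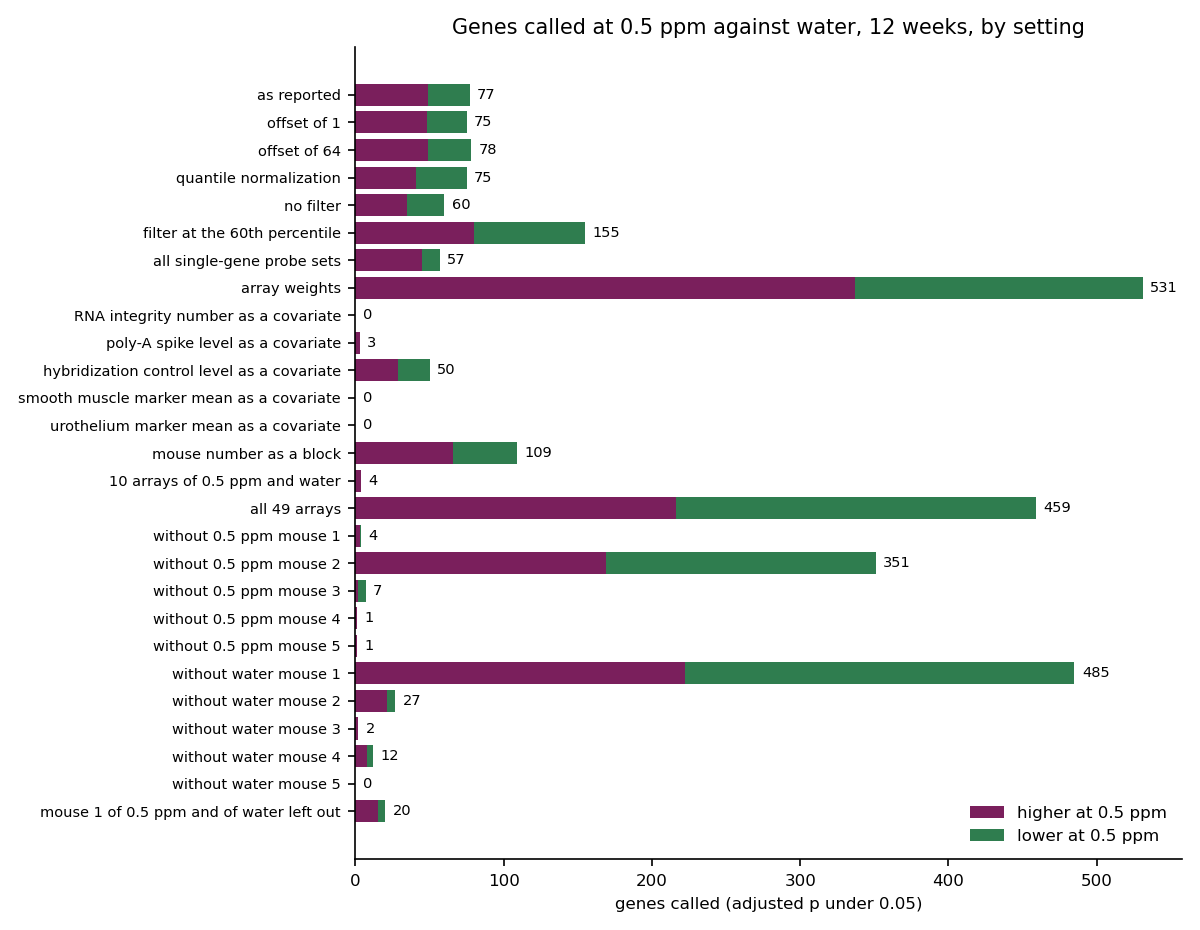
Number of genes called at 0.5 ppm against water at 12 weeks (adjusted p under 0.05) as reported and under each other setting, split into genes higher (purple) and lower (green) at 0.5 ppm. Counts run from 0 to 531, and 5 of the fits without a mouse call fewer than 5 genes.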

How the data were processed

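The authors deposited a linear signal intensity for each probe set of Affymetrix Mouse430_2 arrays, 1 array per mouse. The submitters' processing notes name GCOS 1.0 without its settings. Per the labels' protocols, RNA was extracted with Trizol and purified with a Qiagen method. Each array had a 2% trimmed mean of 500.003 to 500.004, so arrays had been scaled before deposit, and they were compared as deposited. Of 45101 probe sets, 34945 had a single gene in the platform annotation. Genes above the 40th percentile of an array in at least 4 of the 49 arrays were kept, with 1 probe set each, that of highest mean. A mean under 5 is called near the floor.

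Tests used limma 3.58.1 (lmFit, eBayes with trend) in R 4.3.3 on log2(intensity + 16), over the 25 arrays of 12 weeks, or all 49 for the difference between harvests, with Benjamini-Hochberg adjustment over all genes. For arrays, the number of mice limits the precision. Array measures had exact permutation tests. Steps were tested on simulated data. The R package data.table (version 1.17.8), Python 3.11.15 and matplotlib 3.10.9 were used.

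Earlier results of these data were known when the members, the 34 gene lists and the naming rule were chosen. The rule names, among called genes with all 5 mice of 0.5 ppm on the same side of the water mean, the 12 largest rises and 12 largest falls, for the other contrasts the 5 largest each way, of each list spoken of up to 4 members of smallest p, and 8 clock genes. Alternatives were other offsets, quantile normalization, filters, all probe sets, array weights, array measures or marker means as covariates, the mouse number as a block, other sets of arrays and each mouse left out.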

Additional observations from a re-analysis of the deposited data

Results flagged for a closer look

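Of 258 sets of 5 mice examined (102 genes, 22 list means and 5 array measures in the 2 groups of 12 weeks), 25 held a mouse whose gap to the next exceeded Dixon's critical value of 0.71 of the group's range. Chance alone flags about 1 in 20. In 0.5 ppm mouse 1 the lowest signals of the group were those of Gstm4 (11.595), Plvap (9.55), Plin2 (12.29), Slc39a4 (6.75), Atp5d (13.04), Sdhb (12.60), Ckm (11.585), Cldn7 (11.56) and Npas2 (7.62), and the highest those of Abcb1a (8.30), Emcn (9.71), Ammecr1 (5.68) and the array median (6.90). In 0.5 ppm mouse 2, Igdcc4 was highest (10.73), and Lamc1 (11.13) and Tnnt3 (7.62) were lowest. In 0.5 ppm mouse 5 the cell cycle list mean was highest, at 8.08 where the next mouse had 7.25. Among water mice, the lowest were Slc39a4 in mouse 1 (7.605), Tnnc2 (7.53) and the array median (6.45) in mouse 2, Lamc1 (10.47), Ccn1 (9.06) and the T and NK cell list mean (6.47) in mouse 3, and Npas2 in mouse 5 (7.46), while Msln was highest in mouse 4 (10.59).

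The change at 0.5 ppm differed between 12 weeks and 1 week for 675 genes by the interaction test. Many of the genes listed here were named for their 12-week change. That change is a part of the difference, so a difference of the same sign is largely built in. Among genes named in the report, the difference was positive for Gria1 (2.32), Cidea (2.26), Cmya5 (2.22), Cd209c (2.19), Gm13306 (2.14), Fam20a (1.84), Ddr2 (1.80), Atp2b4 (1.54), Prkaa2 (1.47), Fam184b (1.46), Map3k20 (1.39), Myocd (1.33), Rerg (1.23), Lama2 (1.21), Lamc1 (1.06), Dst (1.03) and Msrb3 (0.96). It was negative for Ephx1 (-0.41), Pacsin3 (-0.58), Acaa1b (-0.63), Smim22 (-0.72), Tmem164 (-0.73), Krtcap3 (-0.74), Tmem40 (-0.74), Sox15 (-0.90), Pkp1 (-1.30), Dbp (-1.31), Gm6787 (-1.39), 4930417H01Rik (-1.47) and 4930523O13Rik (-1.73).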

How the results depend on the processing

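All 77 genes called at 0.5 ppm against water kept their sign under every setting in which they were tested. They were called for their changes on these same arrays, so a kept sign is largely built in. The number of calls did not hold. With all probe sets tested, 57 were called, and 29 of these were the probe sets reported for the 77 genes. The number stood between 60 and 109 with offsets of 1 and 64, quantile normalization, no filter, or the mouse number as a replicate block (109). It was 155 with a filter at the 60th percentile, 531 with array weights, 0 with the RNA integrity number, 3 with the poly-A spike level, 50 with the hybridization control level and 0 with the smooth muscle or the urothelium marker mean as a covariate, 4 with the 10 arrays alone, 459 with all 49 arrays, 20 with mouse 1 of both groups left out, and 0 to 485 with a single mouse left out. Whether the mouse numbers pair the groups is not settled: same-numbered mice had correlations of 0.39, 0.263, 0.077, 0 and -0.02, and 2 of 5 correlated best with their own number. These were mice 1 and 2, but water mouse 2 was the best match of 0.5 ppm mice 2, 3, 4 and 5 alike. The 5 correlations are too few to decide it. The 205 genes that differed from the higher doses became 1464 with array weights, 4 with the integrity number, 1282 with the poly-A spike level, 33 with the smooth muscle and 3 with the urothelium marker mean, 404 with all 49 arrays, 249 with the replicate block, and 15 to 613 with a mouse left out. The 675 genes that differed between harvests became 1765 with array weights, 3 and 0 with the smooth muscle and urothelium marker means, 653 with the replicate block, and 260 to 1004 with a mouse left out, where 305 and 338 were left without water mouse 3 and 5, 275, 260 and 414 without 1-week 0.5 ppm mouse 2, 3 and 5, and 362 without 1-week water mouse 2. For the counts of 0, limma left 2003, 894, 1003, 2432 and 828 genes at an unadjusted p under 0.05 (integrity number, smooth muscle, urothelium, water mouse 5 left out, and urothelium for the harvests). The cause of these shifts was not tested. Clock genes near 0 changed sign: Arntl with quantile normalization (-0.037), the integrity number (-0.05), the poly-A spike level (-0.056) and the smooth muscle mean (-0.069), Npas2 with quantile normalization (-0.02), Per2 with the poly-A spike level (-0.046) and the urothelium mean (-0.076), Per3 with the integrity number (0.005) and mouse 1 of both groups left out (0.118), and Nr1d2 with the hybridization control level (0.055). With a mouse left out they ran from -0.068 to 0.136 for Arntl, from -0.074 to 0.237 for Npas2, from -0.029 to 0.198 for Per2, from -0.24 to 0.083 for Per3, from -0.238 to 0.129 for Nr1d2. The hybridization control difference was -0.137 as a median over probe sets, and the 3' to 5' ratio ran from -0.014 to 0.032 with a mouse left out. Without water mouse 1 the integrity number differed by -0.185 and the poly-A spike level by -0.536 (exact permutation p = 0.00794 each, the smallest possible). With a mouse left out these differences ran from -0.185 to -0.105 for the integrity number and from -0.536 to -0.294 for the poly-A spike level.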

Other observations

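Lists with 0 calls at 0.5 ppm against water at 12 weeks that the report does not describe had the following medians. Cholesterol synthesis had a median of -0.135 over 18 genes, the proteasome -0.099 over 31, mitochondrial fatty acid oxidation -0.12 over 21, p53 targets -0.09 over 28, the unfolded protein response -0.031 over 26 and the interferon response -0.045 over 25. Glucocorticoid targets had a median of 0.29 over 18 genes, heat shock proteins 0.023 over 22, DNA repair -0.026 over 32 and the cell cycle 0.15 over 37. At an unadjusted p under 0.05, 1504 of all 14646 genes were lower and 1274 higher. In the order above, the lists had 4, 8, 6, 5, 5 and 0 genes lower at that p, and 0, 0, 3, 1, 2 and 0 higher. Glucocorticoid targets had 2 lower and 4 higher, heat shock proteins 1 and 1, DNA repair 1 and 2, and the cell cycle 0 and 3. The cell cycle mean was 7.21 to 8.08 in 0.5 ppm mice and 7.13 to 7.34 in water mice, and 0.5 ppm mouse 5 set the upper end: without that mouse the list median was -0.044.

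The 77 called genes had 139 further probe sets, of which 117 had the same sign as the reported one and 54 of these an unadjusted p under 0.05. With every single-gene probe set tested separately, 57 of 34945 were called, 45 higher and 12 lower. Of the probe sets reported for the 77 genes, 29 were called there.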
